A study of Mus musculus with 12 samples.

Results

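Induced pluripotent stem cells (iPSCs) were compared here with the astrocytes from which 1 set of them was made, to describe the full distance in gene expression between a glial cell and a pluripotent cell. All 4 iPSC arrays of the study were set against its 3 astrocyte arrays, so that 7 of the 12 arrays and 3 of the 5 groups entered the comparison. A gene was said to have risen or fallen when it was called in the same direction in both iPSC groups against the astrocytes.

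The series followed mouse astrocytes on their way to iPSCs, and the arrays not compared here came from cells in transit and from neural stem cells. The astrocytes were cultured from the cortex of postnatal day 3 mice that carried a Sox1-GFP reporter (Sox1+/-), were sorted as Sox1-GFP-negative cells, and grew in serum-containing medium (DMEM/F12, fetal bovine serum at 10%). The iPSCs from astrocytes (2 arrays) carried the same Sox1-GFP reporter (Sox1+/-) and had received retroviruses for Oct4, Klf4, Sox2 and c-Myc. The iPSCs from MEFs (2 arrays), that is, from mouse embryonic fibroblasts, were 1 established line, iPS-MEF-Ng-20D-17, with a Nanog-GFP-IRES-Puro reporter in place of the Sox1 one. Both kinds of iPSC grew on feeder layers of MEFs arrested with mitomycin C, in medium with 15% serum or serum replacement and 1500 U/ml of the cytokine LIF. The labels name the samples biological replicates without saying how many clones, litters or cultures they came from. The error behind each p-value is therefore the variation among arrays of the same group, part of which may be technical. That error was estimated over all 12 arrays, so the spread of the groups not compared here enters each standard error and p-value. Medium, feeder layer and culture history changed together with cell type between astrocytes and iPSCs, and their contributions cannot be told apart. The reporter differed from that of the astrocytes only in the iPSCs from MEFs.

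As background, astrocytes are the glial cells that clear glutamate and potassium around neurons, couple to blood vessels and respond to injury. Pluripotent cells are held in an undifferentiated state by a network of transcription factors around Oct4 (the gene Pou5f1), Sox2 and Nanog, divide with a short G1 phase, join each other through E-cadherin as epithelia do, and silence retroviruses and lineage genes by DNA methylation and Polycomb complexes. Reprogramming by the 4 factors is known to require the loss of the programme of the starting cell as well as the gain of this network.

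Gene levels are given as log2 of the deposited intensity, an arbitrary scale on which a difference of 1 is a 2-fold change, and levels of different genes cannot be set against each other. In each sentence with array values the astrocyte arrays come first, then the 2 arrays of iPSCs from astrocytes, then the 2 arrays of iPSCs from MEFs. The median over the 19938 genes lay between 6.83 and 6.94 on the 7 arrays. Pearson correlations were taken across all 28853 probe sets, with or without a gene symbol. They were 0.992 to 0.994 among the astrocyte arrays, 0.990 to 0.991 between arrays of different iPSC groups and 0.866 to 0.878 between an astrocyte and an iPSC array. Probe sets are not independent replicates, so these are descriptions of the arrays.

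A call required, in the limma fit, an adjusted p (Benjamini-Hochberg) below 0.05 together with an absolute log2 difference of at least 1. With the 4 iPSC arrays pooled, 1793 genes (8.99% of those tested) were called higher in iPSCs and 2241 (11.2%) lower. In iPSCs from astrocytes alone 1882 genes (9.44%) were higher and 2272 (11.4%) lower than in astrocytes. In iPSCs from MEFs alone 1737 (8.71%) were higher and 2274 (11.4%) lower. Both comparisons used the same 3 astrocyte arrays. By the rule of a call in both, 1513 genes rose (7.59%) and 2062 fell (10.3%). For all 3575 of them the 4 iPSC arrays lay entirely on 1 side of the 3 astrocyte arrays, which was also true of 53.8% of all genes.

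**Figure D1:**
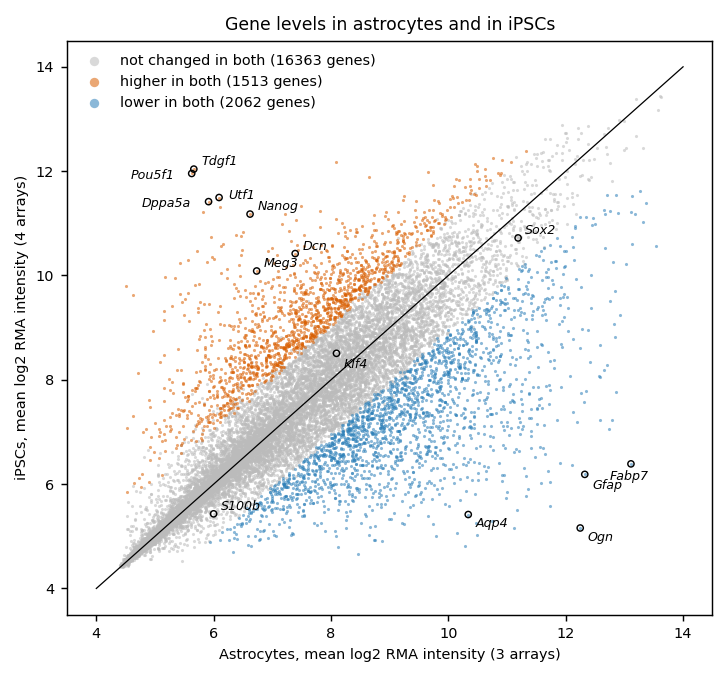
Mean log2 RMA intensity of each of the 19938 genes in astrocytes (x axis, 3 arrays) and in iPSCs (y axis, 4 arrays), with the line of equal level. The 1513 genes that rose in both iPSC groups (orange) and the 2062 that fell (blue) lie on either side of the 16363 others (grey), and circles mark 14 genes named in the text.

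The losses were larger than the gains at the extremes. Among the genes that rose, the median log2 difference was 1.54, and 90 genes differed by at least 3 and 7 by at least 5. Among those that fell the median was -1.75, and 303 differed by at least 3 and 27 by at least 5. Over all genes the median difference was 0.01.

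The strongest gains were in genes of the early embryo. Tdgf1, the Nodal co-receptor Cripto, measured 5.53, 5.54 and 5.92 on the astrocyte arrays and 11.96, 11.69, 12.30 and 12.21 on the iPSC arrays, a log2 difference of 6.38 (SE 0.11, 83.1-fold, adjusted p = 4.7e-12). Pou5f1, which encodes Oct4, measured 5.33, 5.47 and 6.07 against 11.94 and 11.96 in iPSCs from astrocytes and 11.96 ± 0.06 (SD, n = 2) in iPSCs from MEFs (difference 6.33, SE 0.15, 80.4-fold). The 4 iPSC arrays were nearly equal for Pou5f1, whereas the third astrocyte array lay above the other two. Dppa5a, a marker of embryonic stem cells, rose by 5.50 on the log2 scale, and Utf1, a chromatin protein of undifferentiated embryonic cells, by 5.40. Others of the 15 largest gains were Nr0b1 (4.81), which encodes the nuclear receptor Dax1, Dppa2 (4.80), a chromatin factor of pluripotent cells, and Nanog (4.56).

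The other genes among the 15 largest gains were of several kinds. Trh, the precursor of thyrotropin-releasing hormone, measured 5.68, 5.70 and 6.06 in astrocytes and 11.32, 11.21, 11.18 and 11.17 in iPSCs (difference 5.40, SE 0.16). Igf2bp1, an RNA-binding protein of fetal cells, rose by 5.22. The amino acid transporters Slc7a3 (4.79), which is on the list of pluripotency markers, and Slc38a4 (4.76) and the ectoenzyme Enpp3 (4.62) rose as well. The zinc finger genes Zfp640 (5.31) and Zfp980 and the gene Fam169a (4.73) complete the group. Zfp640 and Zfp980 belong to a family with close copies, and cross-hybridisation between them was not tested.

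The strongest losses were led by Ogn, a small leucine-rich proteoglycan of the matrix, at 12.37, 12.12 and 12.25 in astrocytes and 5.09 and 5.57 in iPSCs from astrocytes, with 4.99 ± 0.02 (SD, n = 2) in iPSCs from MEFs (log2 difference -7.09, SE 0.11, 136-fold, adjusted p = 3e-12). Fabp7, the brain fatty acid-binding protein of radial glia and young astrocytes, measured 13.11, 13.14 and 13.09 against 6.24, 6.75, 6.19 and 6.37 (difference -6.72, SE 0.12, 106-fold). Gfap, the intermediate filament by which astrocytes are usually recognised, measured 12.22, 12.10 and 12.65 against 6.17, 6.17, 6.14 and 6.27 (difference -6.14, SE 0.11, 70.4-fold). For each of these 3 genes all iPSC arrays lay far below all astrocyte arrays. Gpm6a, a neural membrane glycoprotein, fell by 6.14 on the log2 scale, Ptprz1, a receptor phosphatase of glia, by 5.96, Ecrg4, a secreted peptide precursor, by 5.73, and Mlc1, a membrane protein of astrocyte endfeet, by 5.69.

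The rest of the 15 largest losses were Cp (ceruloplasmin, a copper oxidase, -5.68), Ncan (the brain proteoglycan neurocan, -5.67), Zbtb20 (a transcription factor of astrocytes, -5.56), Igfbp5 (an insulin-like growth factor binding protein, -5.56), C1ql3 (a secreted C1q-like protein, -5.54), Islr (a leucine-rich surface protein, -5.49), Slco1a4 (an organic anion transporter, -5.46) and the microRNA gene Mir568 (-5.45). Mir568 measured 10.28, 10.49 and 10.68 in astrocytes and 4.97, 5.24, 5.10 and 4.83 in iPSCs. An array probe set for a microRNA gene hybridises with precursor or host transcripts as well, so this value is not one of the mature microRNA.

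**Figure D2:**
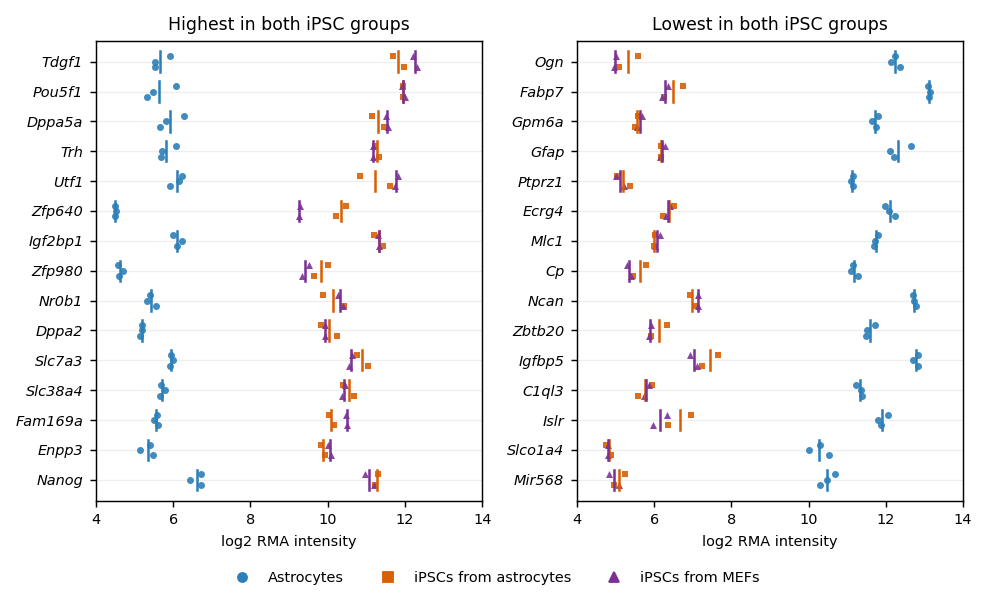
Log2 RMA intensity on each of the 7 arrays (x axis) for the 15 genes with the largest gain and the 15 with the largest loss in both iPSC groups. Points are single arrays, vertical bars are group means, and in every gene shown the iPSC points are separated from the astrocyte points.

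Ranked by the moderated t statistic, which weighs a difference by its spread, further genes led. Dnmt3l, a cofactor of the de novo DNA methyltransferases, measured 5.85, 6.00 and 6.05 in astrocytes and 10.39, 10.20, 10.43 and 10.39 in iPSCs (difference 4.38, SE 0.07). Epcam, an adhesion molecule of epithelia and embryonic stem cells, rose by 4.10 (SE 0.06), Bcat1, which transaminates branched-chain amino acids, by 3.76 (SE 0.06), and the long non-coding RNA Lncenc1 by 4.10 (SE 0.07). Lncenc1 was lower in iPSCs from MEFs than in iPSCs from astrocytes (-1.67). On the falling side stood Aqp4, the water channel of astrocyte endfeet (-4.92, SE 0.06), Hacd4, a fatty acid elongation enzyme (-4.51, SE 0.07), Fbxo2, an F-box protein that binds glycoproteins (-4.50, SE 0.07), and Chrdl1, a secreted BMP antagonist made by astrocytes (-4.42, SE 0.07). Apart from Lncenc1, the iPSC groups were not called as different in any of these genes.

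Of the 33 gene lists used to order the results, the members are described by how many rose or fell in both groups and by their median difference, to be read against 7.59% of all genes that rose, 10.3% that fell and the median of 0.01. Of their 626 entries 571 were measured by a probe set with 1 gene symbol. The lists were drawn up with earlier results of these data known, so their shares are descriptions of the comparison.

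**Figure D3:**
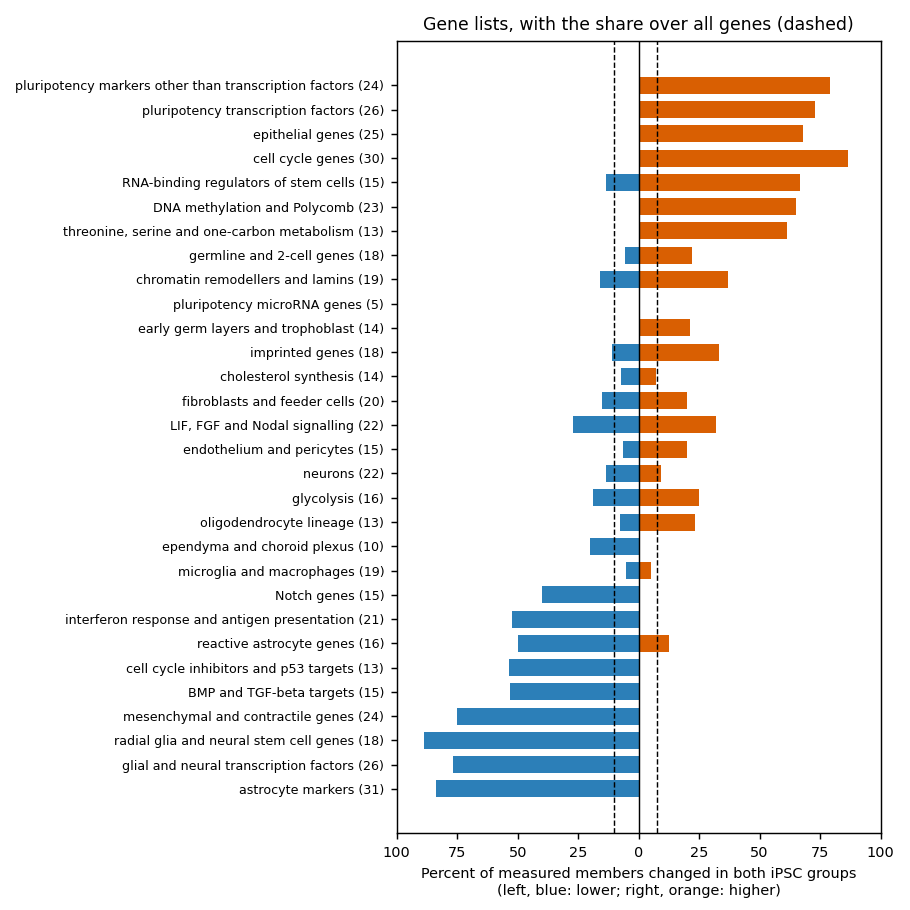
Share of the measured members of each gene list that fell (blue, left) or rose (orange, right) in both iPSC groups, with the number measured in brackets, for lists with at least 5 measured genes. Dashed lines mark the share over all genes, 10.3% for falls and 7.59% for rises, and 26 of 30 cell cycle genes and 16 of 18 radial glia genes stand far beyond them.

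The 4 factors used to make iPSCs did not move alike. Beside Pou5f1, Sox2, the partner of Oct4 that also serves neural progenitors, was already high in astrocytes at 11.28, 11.17 and 11.12 and measured 10.75, 10.77, 10.71 and 10.64 in iPSCs, slightly lower (difference -0.47, SE 0.07, adjusted p = 7.2e-05) and under the fold limit of a call. Klf4, a zinc finger factor, measured 8.05, 8.41 and 7.82 against 8.07, 8.26, 9.03 and 8.68, with overlapping groups (difference 0.41, SE 0.13). Myc, the growth regulator, measured 8.78, 8.45 and 8.21 against 8.89, 8.69, 9.50 and 9.37 (difference 0.63, SE 0.13). For Klf4 and Myc the iPSCs from MEFs lay above the iPSCs from astrocytes. Whether any of this signal came from the retroviral copies was not tested.

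Of 26 measured pluripotency transcription factors, 19 rose (73.1%), none fell, and the median difference was 2.39. Nanog, the homeodomain factor that stabilises pluripotency, measured 6.71, 6.43 and 6.72 in astrocytes and 11.24, 11.31, 11.20 and 10.96 in iPSCs. Sall4, a zinc finger partner of Oct4, measured 6.16, 6.54 and 6.79 against 11.05, 10.94, 10.64 and 10.69 (difference 4.34, SE 0.11). Esrrb, an orphan nuclear receptor of naive stem cells, rose by 3.65, Mybl2, a Myb factor of dividing cells, by 3.97, and Zfp42, which encodes the marker Rex1, by 4.15. Zfp42 was uneven between the iPSC groups, at 10.21 and 10.38 in those from astrocytes and 8.45 and 8.21 in those from MEFs (astrocytes 5.12, 5.17 and 5.19).

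The 7 factors of that list that were not called in both groups were Sox2, Klf4, Gbx2, Klf2, Sall1, Zfx and Tfcp2l1. Gbx2, a homeobox gene that responds to LIF, measured 6.89, 6.85 and 6.94 in astrocytes, 7.74 and 7.55 in iPSCs from astrocytes and 9.26 and 9.20 in iPSCs from MEFs. Sall1, a zinc finger factor, measured 8.85, 8.93 and 8.90 in astrocytes, 9.87 and 9.67 in iPSCs from astrocytes and 8.94 and 8.93 in iPSCs from MEFs, and was called in neither group. Klf2 differed by 0.56 (SE 0.13), Tfcp2l1 by 0.22 (SE 0.08) and Zfx by -0.23 (SE 0.06), all under the fold limit.

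Among the other pluripotency markers 19 of 24 rose (79.2%, median 2.92) and none fell. L1td1, an RNA-binding protein derived from a retrotransposon, measured 5.84, 6.40 and 6.24 in astrocytes and 10.61, 10.70, 10.55 and 10.56 in iPSCs (difference 4.44, SE 0.12). Fgf4, the growth factor that stem cells make for themselves, measured 6.95, 7.20 and 7.14 against 10.51, 9.95, 10.08 and 9.78 (difference 2.98, SE 0.13). The Nodal pathway was represented by its ligand Nodal (2.07), its co-receptor Tdgf1, its inhibitors Lefty1 (3.56) and Lefty2 (3.74) and the related ligand Gdf3 (2.96), which all rose. Within the wider list of LIF, FGF and Nodal signalling 7 of 22 genes rose and 6 fell. Those that fell were receptors, a kinase and a feedback inhibitor, namely Fgfr2 (-3.29), Fgfr3 (-2.25), Il6st, the shared receptor subunit for LIF (-2.01), the feedback inhibitor Socs3 (-1.75), Fgfr1 (-1.71) and the kinase Jak1 (-1.36). Socs3 was uneven among the astrocyte arrays at 9.75, 9.86 and 10.65, and its call in both groups was lost without the third of them (difference -1.47).

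RNA-binding regulators of stem cells rose in 10 of 15 cases and fell in 2 (median 1.83). Lin28a, which blocks the maturation of let-7 microRNAs, measured 6.38, 6.58 and 6.65 in astrocytes and 9.99, 9.86, 9.58 and 9.43 in iPSCs (difference 3.18, SE 0.09). Trim71, a let-7 target that represses messenger RNAs, rose by 2.91, Igf2bp3 by 3.22 and the epithelial splicing factor Esrp1 by 4.13. The 2 that fell were Mbnl1 (-2.18, SE 0.06) and Mbnl2 (-1.62, SE 0.09), splicing factors known to favour the exons of differentiated cells. Mbnl3, their relative, rose by 1.83.

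Few microRNA genes were called in both groups. Of 300 measured microRNA gene symbols 9 rose and 2 fell, smaller shares than the 7.59% and 10.3% of all genes. Mir568, described above, was among those that fell. The Mir17 cluster, a polycistron that promotes proliferation, supplied 4 of the rising symbols, its host transcript Mir17hg among them. The mature microRNAs of its measured members are shown because they fall into 3 seed families. RefSeq holds an entry for 271 of the 300 symbols (GRCm38.p6). Capitals mark the seed, bases 2 to 8, which pairs with targets. The members lie on chromosome 14 and miR-302b on chromosome 3. The last sequence is miR-302b, of the stem cell cluster Mir302, because its seed shares the run AAGUGC with the miR-17 seed, 1 base nearer to the 5′ end.
miR-17-5p: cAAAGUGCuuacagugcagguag
miR-20a-5p: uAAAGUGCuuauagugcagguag
miR-18a-5p: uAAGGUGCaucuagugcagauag
miR-19a-3p: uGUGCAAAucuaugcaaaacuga
miR-19b-3p: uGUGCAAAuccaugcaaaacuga
miR-302b-3p: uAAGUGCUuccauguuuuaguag

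In the family with seed GUGCAAA, Mir19b-1 measured 5.05, 5.14 and 5.09 in astrocytes and 7.37, 7.29, 6.82 and 6.50 in iPSCs (difference 1.90, SE 0.23), and Mir19a rose by 1.33, a call lost without the first array of iPSCs from MEFs (1.19). Mir18, with seed AAGGUGC, rose by 2.16, and the host transcript Mir17hg by 1.71. In the family with seed AAAGUGC, Mir20a differed by 1.20 and Mir17 by 0.87, and neither was called in both groups. None of the 5 measured genes of the Mir302 and Mir367 cluster was called in both: Mir302b measured 4.51, 4.53 and 4.51 in astrocytes, 5.95 and 6.11 in iPSCs from astrocytes and 4.80 and 4.68 in iPSCs from MEFs. Mir302b was called as lower in iPSCs from MEFs than in iPSCs from astrocytes (-1.29), and its values in the MEF line lay just above those of the astrocytes. Other rising microRNA genes were Mir6516 (2.47), Mir677 (1.24) and Mir300, Mir329 and Mir382 (1.34 to 1.39), which lie in the imprinted Dlk1-Dio3 cluster.

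Of 23 genes for DNA methylation and Polycomb complexes 15 rose and none fell (median 1.46). The de novo methyltransferase Dnmt3b measured 6.45, 6.35 and 6.61 in astrocytes and 10.98, 10.98, 10.60 and 10.43 in iPSCs (difference 4.28, SE 0.07), Dnmt3a rose by 2.21 and the maintenance enzyme Dnmt1 by 1.46. Tet1, which oxidises methylcytosine, measured 7.12, 7.15 and 7.20 against 11.11, 10.80, 10.98 and 11.09 (difference 3.83, SE 0.09). Of its relatives Tet2 rose by 1.30, a call lost without the second astrocyte array (1.23) or the first array of iPSCs from astrocytes (1.29), and Tet3 differed by -0.07 and was not called. Subunits and partners of Polycomb repressive complex 2 rose, with Jarid2 at 3.67, Mtf2 at 3.17, Eed at 1.91, Suz12 at 1.43 and the enzyme Ezh2 at 1.20, whereas Ezh1, its alternative, differed by 0.07. The calls of Ezh2 (1.00) and Suz12 (1.22) were lost after cyclic loess normalization, and that of Eed with the mean of its probe sets (1.02). The Polycomb complex 1 subunit Phc1 rose by 2.60 and Cbx7, the chromobox protein of stem cells, by 1.46.

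Chromatin remodellers and lamins split, with 7 of 19 higher, 3 lower and a median of 0.73. The members that fell were subunits of the BAF complex known from differentiated cells: the ATPase Smarca2 measured 10.23, 10.19 and 10.13 in astrocytes and 6.35, 7.21, 7.18 and 6.79 in iPSCs (difference -3.30, SE 0.19), Smarcd3 fell by 2.12 on the log2 scale and Smarcc2 by 1.53. The members known from the embryonic stem cell form of the complex rose, namely Smarcc1 (1.39), Smarcd1 (1.30) and Actl6a (1.52). The ATPase Smarca4, the alternative to Smarca2, differed by 0.26 and was not called. At the nuclear envelope the lamin B receptor Lbr rose by 2.52 and Lmnb1 by 2.15, while Lmna differed by -0.48.

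Germline genes were mixed and uneven between the iPSC groups. Of 18 measured, 4 rose in both groups and 1 fell (median 0.91), and 4 were called between the iPSC groups. Over all genes 0.281% were called higher and 0.461% lower in iPSCs from MEFs than in iPSCs from astrocytes. Mael, a factor of the piRNA pathway that silences transposons, measured 4.91, 4.92 and 4.88 in astrocytes and 8.48, 7.58, 7.31 and 7.08 in iPSCs (difference 2.71, SE 0.16). Tdrd12, a Tudor protein of the same pathway, measured 5.06, 5.15 and 5.27 in astrocytes, 9.44 and 9.29 in iPSCs from astrocytes and 6.43 and 6.23 in iPSCs from MEFs, so that all 3 groups were separate. Sycp3, a component of the meiotic chromosome axis, measured 4.84, 4.84 and 4.77, then 7.87 and 7.46, then 5.64 and 5.08, and was called only in iPSCs from astrocytes, with a called difference of -2.30 between the iPSC groups. The germ cell helicase Ddx4 rose by 1.15 (SE 0.06), a call lost without the second astrocyte array (1.10), and Sohlh2, a bHLH factor of germ cells, by 1.77, while Tdrkh, a Tudor protein of the pathway, fell by 1.70 on the log2 scale.

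Promoter windows from RefSeq (GRCm38.p6), which run from 250 bases before to 50 after a gene's start, were available as 19177 windows for 15614 of the tested genes. The E-box CACGTG, a palindrome and so the same on both strands, occurred in 10 of 18 germline windows (55.6%), in 8.24% of all windows, in 12.5% of those of rising genes and in 8.51% of those of falling genes. The upstream parts of Ddx4 and Sycp3 are shown as examples of germline genes with that match, 1 that rose in both iPSC groups and 1 that did not, with the E-box in capitals. The Ddx4 sequence is chr13:112652311-112652560 on the minus strand and the Sycp3 sequence chr10:88459337-88459586 on the plus strand.
Ddx4: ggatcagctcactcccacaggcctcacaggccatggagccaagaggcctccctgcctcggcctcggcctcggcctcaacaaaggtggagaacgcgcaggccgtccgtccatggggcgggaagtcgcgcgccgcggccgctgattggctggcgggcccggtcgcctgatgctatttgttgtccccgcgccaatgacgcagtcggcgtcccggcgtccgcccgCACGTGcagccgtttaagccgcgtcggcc
Sycp3: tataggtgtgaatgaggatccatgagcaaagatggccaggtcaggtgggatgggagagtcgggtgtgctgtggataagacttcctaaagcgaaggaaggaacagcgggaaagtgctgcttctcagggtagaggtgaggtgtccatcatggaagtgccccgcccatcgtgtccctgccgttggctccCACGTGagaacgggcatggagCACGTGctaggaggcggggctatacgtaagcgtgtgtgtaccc

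Ddx4 has 1 match and 31 CpG dinucleotides in these 250 bases, and Sycp3 has 2 matches and 12 CpG dinucleotides. The motifs were chosen after values of the genes had been seen, and a match is a description of the letters and not a bound site.

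Cell cycle genes were the list with the highest share of rises, 26 of 30 (86.7%, median 1.93), with none falling. Ccne1, the cyclin that drives entry into S phase, measured 7.44, 7.39 and 7.04 in astrocytes and 10.96, 10.77, 10.86 and 10.80 in iPSCs (difference 3.56, SE 0.10). Mcm3, a subunit of the replicative helicase, measured 7.48, 7.62 and 6.93 against 10.35, 9.90, 10.30 and 10.28 (difference 2.86, SE 0.15), and the licensing factor Cdt1 rose by 2.67. The mitotic kinase gene Bub1 rose by 2.76 and Aurka by 2.33. The third astrocyte array was the lowest of the 3 for each of Ccne1, Mcm3, Bub1 and Cdt1. Mki67, the usual proliferation marker, was already 9.74, 9.99 and 9.41 in astrocytes and differed by 0.88, and Pcna by 1.00, so neither was called in both groups.

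The same promoter windows hold CCAAT, on either strand, in 19 of 24 windows of the cell cycle list (79.2%), against 37.4% of all windows, 38.9% for rising and 37.4% for falling genes. Mcm3 is shown because its 250 upstream bases, chr1:20820313-20820562 on the minus strand, hold 3 matches, given in capitals (1 as ATTGG, the reverse complement).
Mcm3: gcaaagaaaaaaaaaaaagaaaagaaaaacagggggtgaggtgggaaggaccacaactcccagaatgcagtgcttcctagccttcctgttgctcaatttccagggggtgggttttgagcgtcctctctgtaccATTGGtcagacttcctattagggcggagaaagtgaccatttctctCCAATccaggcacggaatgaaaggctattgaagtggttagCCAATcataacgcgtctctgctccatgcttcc

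In all, 7 motifs were searched on both strands, and they can overlap one another. TTTCCCGC occurred in 3 of 24 cell cycle windows (12.5%), 2 of 18 germline windows (11.1%) and 1.52% of all. ATGCAAAT occurred in 2 of 29 windows of pluripotency transcription factors (6.9%) and in 2 of 31 of astrocyte markers (6.45%). Its share was 1.64% in windows of rising genes, 1.43% in falling and 1.6% in all. GGGCGG occurred in 66.2% of the windows of rising genes, 58.5% of falling and 49.2% of all, and TATAAA in 7.33%, 8.69% and 11.5%. By list the share of GGGCGG was 83.3% for cell cycle genes, 66.7% for germline genes, 44.8% for pluripotency transcription factors and 41.9% for astrocyte markers. The full palindrome bound by nuclear factor I occurred in 7 of the 19177 windows. The median number of CpG dinucleotides was 21 in windows of rising genes, 18 in those of falling genes and 15 in all windows. By list it was 24 for cell cycle genes, 22 for germline genes, 14 for pluripotency transcription factors and 8 for astrocyte markers.

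Inhibitors of the cycle and p53 targets moved the other way, with 7 of 13 lower and none higher (median -1.39). The CDK inhibitor Cdkn2c measured 8.91 ± 0.15 (SD, n = 3) in astrocytes and 5.66, 6.28, 6.05 and 5.81 in iPSCs (difference -2.96, SE 0.14), Cdkn1b, which encodes p27, fell by 1.83 on the log2 scale and the retinoblastoma gene Rb1 by 2.13. The stress genes Sesn1 (-1.84), Gadd45b (-1.75) and Btg2 (-1.55) fell too. Cdkn2a, the locus of p16 and p19Arf, differed by -0.37 and was not called.

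Epithelial genes rose in 17 of 25 cases and fell in none (median 1.94), and mesenchymal and contractile genes fell in 18 of 24 and rose in none (median -2.14). Cdh1, which encodes E-cadherin, measured 6.38, 6.49 and 6.27 in astrocytes and 10.88, 10.65, 10.81 and 10.75 in iPSCs (difference 4.39, SE 0.09, 21-fold). Cdh2, which encodes N-cadherin, measured 12.55, 12.62 and 12.57 against 8.12, 8.73, 7.73 and 7.63 (difference -4.53, SE 0.11, 23-fold). The tight junction gene Cldn6 rose by 4.44 and the keratin gene Krt18 by 2.32. The contractile genes Cnn1 (-4.52), Acta2 (-4.01), Tagln (-3.91) and Myl9 (-3.53) fell, and with them Cav2 of the caveolae (-4.04), Vim (-1.99) and the repressors of E-cadherin Zeb1 (-2.43) and Zeb2 (-2.77). Snai1, Snai2 and Twist1, repressors of the same group, were not called (0.61, 0.29 and 0.00).

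Of 15 BMP and TGF-beta targets 8 fell and none rose (median -1.60), led by the inhibitors of bHLH factors Id4 (-3.65), Id3 (-3.30), Id2 (-3.16) and Id1 (-2.93). Id1 measured 11.50, 11.24 and 11.44 in astrocytes and 8.44, 8.74, 8.42 and 8.26 in iPSCs. Of 15 Notch genes 6 fell and none rose (median -0.60): the target Hey1 (-3.25), the receptors Notch2 (-2.38) and Notch1 (-2.24), Dtx4 (-1.96), the glycosyltransferase Lfng (-1.70) and Hey2 (-1.17). The call of Hey2 was lost without the first astrocyte array (-0.95) or the second array of iPSCs from MEFs (-1.11), or with centred array medians (-1.08). Hes1 (-0.93) and Hes5 (-0.60) were not called.

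Metabolic lists differed in kind. One-carbon and serine metabolism rose in 8 of 13 cases with no fall (median 1.08), including Gart (2.29) and Atic (1.36) of purine synthesis and the folate enzymes Shmt1 (2.25), Mthfd2 (2.21), Mthfd1l (1.99) and Shmt2 (1.96). Shmt1 measured 6.87, 6.98 and 6.86 in astrocytes and 9.18, 9.14, 9.19 and 9.09 in iPSCs. Of 16 glycolysis genes 4 rose and 3 fell, with a median of 0.05 that changed sign after cyclic loess normalization (-0.25). The glucose transporters Slc2a3 (3.22) and Slc2a1 (1.72), hexokinase 2 (Hk2, 1.47) and the phosphofructokinase Pfkl (1.30, a call lost after cyclic loess at 1.19) rose, and Aldoc, the brain aldolase (-3.29), Ldhb (-2.85) and Pfkm (-1.95) fell. Of 14 cholesterol synthesis genes Lss rose (1.19), a call that was lost without the first array of iPSCs from astrocytes (1.12), Sc5d fell (-1.22), and the other 12 were not called.

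Astrocyte markers fell in 26 of 31 cases (83.9%), none rose, and the median difference was -3.61. The mean level over the list was 10.23 to 10.39 on the astrocyte arrays, 6.92 to 6.94 in iPSCs from astrocytes and 7.05 to 7.12 in iPSCs from MEFs. Aqp4 measured 10.31, 10.25 and 10.46 in astrocytes and 5.42, 5.40, 5.44 and 5.42 in iPSCs. Kcnj10, the potassium channel Kir4.1, measured 11.38, 11.29 and 11.38 against 5.98, 5.85, 5.80 and 6.00 (difference -5.45, SE 0.08). The glutamate transporters Slc1a3 (-4.01) and Slc1a2 (-3.48), the cell adhesion protein Hepacam (-5.25), Aldh1l1 (-3.72) and glutamine synthetase (Glul, -1.68) fell. The RNA came from whole cultures, so fewer cells of a type and less RNA per cell cannot be told apart.

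The other 5 astrocyte markers were not called in both groups. S100b, a calcium-binding protein, measured 6.02, 5.83 and 6.14 in astrocytes and 5.34, 5.52, 5.39 and 5.48 in iPSCs (difference -0.57, SE 0.08). Gjb6, which encodes connexin 30, measured 5.38, 5.38 and 5.49 against 5.36, 5.43, 5.39 and 5.48 and showed no difference. Slc7a11, the cystine transporter, measured 6.60, 6.43 and 6.77 against 6.27, 6.12, 6.18 and 6.34 (difference -0.37, SE 0.14). In astrocytes S100b, Gjb6 and Slc7a11 already lay below the median over all genes (6.83 to 6.94). Their low signal limits how far a fall could show. Gja1, which encodes connexin 43, measured 10.16, 9.90 and 10.45 against 9.60, 9.61, 9.89 and 9.96 (difference -0.40, SE 0.12). Cbs, which makes cystathionine, measured 8.17, 8.18 and 8.10 against 7.94, 7.91, 8.12 and 8.14 (difference -0.12, SE 0.06).

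**Figure D4:**
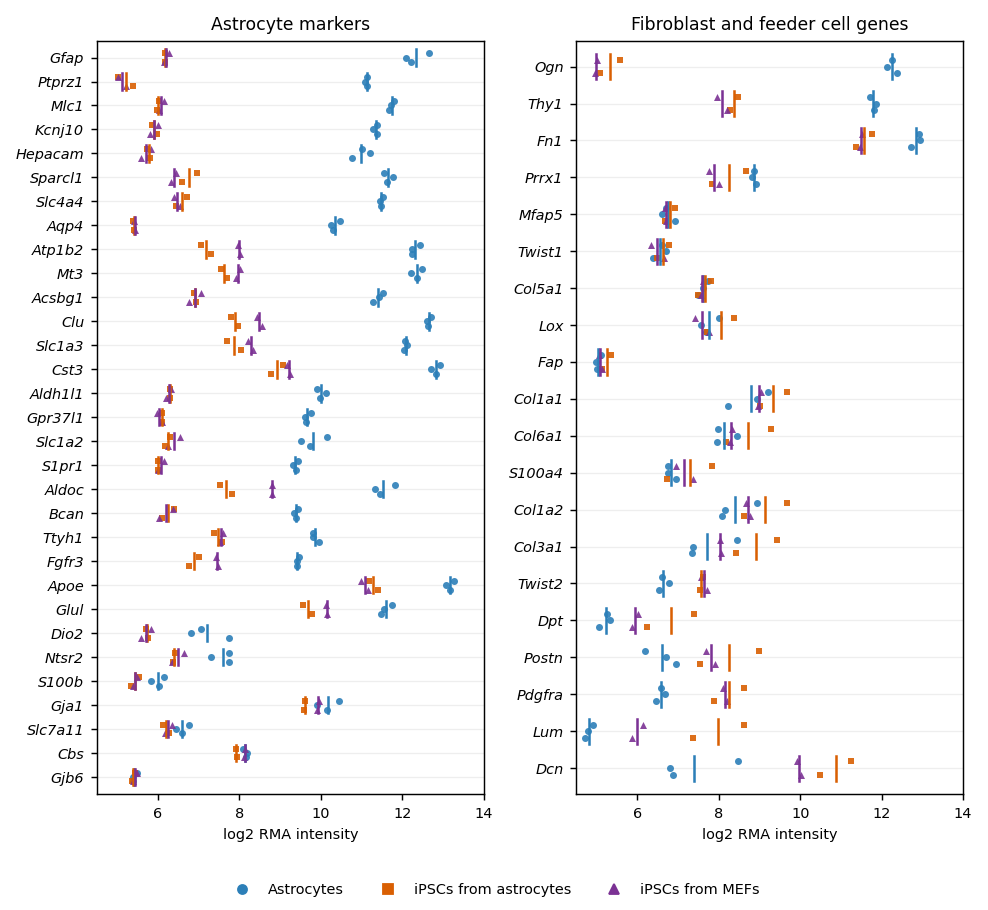
Log2 RMA intensity on each of the 7 arrays (x axis) for the 31 measured astrocyte markers and the 20 measured fibroblast and feeder cell genes, in order of their difference. Points are single arrays and vertical bars group means, and 26 of the astrocyte markers fell in both iPSC groups. Of the 20 fibroblast and feeder cell genes Dcn, Lum, Pdgfra and Postn rose, and Ogn, Thy1 and Fn1 fell. The others were not called in both groups.

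The regulators of glial identity fell with the markers. Of 26 glial and neural transcription factors 20 fell and none rose (median -2.77). Zbtb20 measured 11.48, 11.52 and 11.73 in astrocytes and 5.93, 6.34, 5.85 and 5.93 in iPSCs. The nuclear factor I genes, which switch on glial genes, fell together: Nfib by 4.62, Nfia by 4.57 and Nfix by 4.51 on the log2 scale. The homeobox gene Meis2 fell by 4.98, Olig2, a bHLH factor of glia, by 4.40, and Sox9, which starts gliogenesis, by 4.10. Sox1, the gene that carries the reporter, measured 7.97, 8.25 and 8.17 against 8.01, 7.98, 7.98 and 7.99 (difference -0.14, SE 0.08), and its relative Sox3 differed by 0.22. Neither was called, and the other members of the list not called were Hes5, Hopx, Dach1 and Pou3f2.

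Genes of radial glia and neural stem cells fell in 16 of 18 cases (88.9%, median -2.53) and none rose. Beside Fabp7, Gpm6a and Ncan, the membrane protein Gpm6b measured 12.56, 12.58 and 12.62 in astrocytes and 7.44, 7.85, 6.98 and 6.62 in iPSCs (difference -5.36, SE 0.10). The growth factor Ptn fell by 3.50 on the log2 scale, the hyaluronan receptor Cd44 by 3.12 and the intermediate filament Nes by 2.93. The extracellular proteins Mfge8 (-0.91) and Vcan (-0.94) were not called.

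Genes of reactive astrocytes, those that respond to injury, fell in 8 of 16 cases and rose in 2 (median -1.30). Cp measured 11.27, 11.10 and 11.15 in astrocytes and 5.46, 5.80, 5.41 and 5.31 in iPSCs, the oncostatin M receptor gene Osmr fell by 3.94 on the log2 scale, the protease inhibitor Serpina3n by 3.87 and the lipocalin Lcn2 by 2.49. The 2 that rose were Hspb1, a small heat shock protein (2.44, SE 0.12), and the chemokine gene Ccl2, at 7.03, 6.98 and 6.67 in astrocytes and 8.22, 9.60, 8.03 and 7.82 in iPSCs (1.52, SE 0.24). The call of Ccl2 was lost without the third astrocyte array (1.41), without the first array of iPSCs from MEFs (1.47), at an adjusted p under 0.01, with array weights (1.49) and with the replicate number as a block (1.48). Interferon response and antigen presentation genes fell in 11 of 21 cases and rose in none (median -1.26), with Ifit3 at -3.92, Ifit2 at -3.05, Ifit1 at -2.89 and B2m, the light chain of MHC class I, at -2.34.

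Markers of other cells that the cultures could hold were examined on the same scale. Of 20 fibroblast and feeder cell genes 4 rose and 3 fell (median 0.38). Dcn, the proteoglycan decorin, measured 6.88, 6.81 and 8.48 in astrocytes and 10.48, 11.26, 10.03 and 9.92 in iPSCs (difference 3.03, SE 0.36). Lum, the related lumican, measured 4.71, 4.79 and 4.91 against 7.36, 8.63, 5.87 and 6.13 (difference 2.19, SE 0.22). Pdgfra rose by 1.63 and Postn, a matrix protein of fibroblasts, by 1.41. The call of Postn was lost without the third astrocyte array (1.20), the first array of iPSCs from MEFs (1.36) or the second of iPSCs from astrocytes (1.05). Ogn (-7.09), Thy1 (-3.57) and Fn1 (-1.32) of the same list fell.

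The second array of iPSCs from astrocytes was the highest of the 4 iPSC arrays for Dcn, Lum, Pdgfra, Postn and Ccl2. The mean level over the 20 fibroblast and feeder cell genes was 7.72 to 7.96 in astrocytes, 7.70 and 8.40 on the 2 arrays of iPSCs from astrocytes and 7.59 to 7.68 in iPSCs from MEFs. The collagen genes Col1a1 and Col3a1 differed by 0.37 and 0.76 and were not called. The part of feeder RNA in the rises of this list was not tested. Over all genes, 3616 were called in both groups without the second array of iPSCs from astrocytes, against 3575 with it. That total does not bear on the feeder question. Among the genes of this list that rose, Postn lost its call without that array (1.05).

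Microglia and macrophage genes rose in 1 of 19 cases and fell in 1 (median -0.14). Laptm5, a lysosomal protein of blood cells, rose (1.86), Ctss, a lysosomal protease, fell (-1.15) and lost its call without the first astrocyte array (-0.86), with centred array medians (-1.06) or with array weights (-1.07), and that array was the highest of the 3 for C1qa (7.59, 7.16 and 7.03), Csf1r and Ctss. The mean level of the list was 6.36 to 6.74 in astrocytes and 6.19 to 6.33 in iPSCs. The part of microglial RNA in the astrocyte values was not tested.

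Neuronal genes rose in 2 of 22 cases and fell in 3 (median 0.07). Map2, a dendritic microtubule protein, measured 10.06, 9.77 and 9.90 in astrocytes and 6.92, 6.91, 6.86 and 6.84 in iPSCs (-3.03), Rtn1 fell by 4.19 on the log2 scale and Stmn2 by 1.48, while the neurofilament genes Ina (3.54) and Nefl (2.07) rose. Genes of neuronal identity such as Rbfox3 (0.12), Dcx (0.06) and Tubb3 (0.47) were not called. In the oligodendrocyte list 3 of 13 rose (Pdgfra, Myrf at 1.52 and Ugt8a at 1.47) and Cnp fell (-2.19), with Mbp, Mog and Sox10 between 0.02 and 0.09. Among endothelial and pericyte genes 3 of 15 rose (Anpep at 1.88, Eng at 1.82, Pecam1 at 1.50) and Pdgfrb fell (-1.90), and of these Pecam1 is also a surface marker of stem cells. In the ependymal list Foxj1 (-1.75) and Kcnj13 (-1.17) of 10 genes fell, and none of 3 blood cell genes was called.

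Imprinted genes, which are expressed from 1 parental copy, rose in 6 of 18 cases and fell in 2 (median 0.47). Phlda2, a regulator of placental growth, measured 6.14, 6.16 and 6.40 in astrocytes, 9.08 and 8.73 in iPSCs from astrocytes and 10.97 and 11.06 in iPSCs from MEFs. Meg3, the non-coding RNA of the Dlk1-Dio3 cluster, measured 6.65, 6.73 and 6.82 in astrocytes and 10.38, 10.26, 9.77 and 9.93 in iPSCs (difference 3.35, SE 0.22). Peg3 (3.06), Grb10 (2.32), Peg10 (1.67) and Igf2 (1.37) rose, and Sgce (-2.26) and Ndn (-1.87) fell. The call of Igf2, a fetal growth factor, was lost without the first array of iPSCs from MEFs (1.28) or the second of iPSCs from astrocytes (1.07). Phlda2, Peg3 and Grb10 were each higher in iPSCs from MEFs than in iPSCs from astrocytes. Dlk1, the paternally expressed gene of the Meg3 cluster, differed by -0.59 and was not called.

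Early germ layer and trophoblast genes were partly uneven between the iPSC groups. Of 14 measured, 3 rose in both groups and none fell (median 0.58). Eomes, a T-box factor of mesendoderm and trophoblast, measured 5.71, 5.63 and 5.70 in astrocytes, 8.16 and 8.78 in iPSCs from astrocytes and 7.27 and 6.90 in iPSCs from MEFs. Fgf5, a marker of primed epiblast, measured 6.30, 6.19 and 6.31, then 8.99 and 9.14, then 7.72 and 7.35. Both were higher in iPSCs from astrocytes, whereas Gata6, of primitive endoderm, rose to like levels in both (1.44 and 1.51). Cdx2, Afp and Elf5 differed by 0.02 to 0.09 and were not called.

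The iPSC groups differed from each other in far fewer genes than from astrocytes. Between them 148 genes were called, 56 higher (0.281% of those tested) and 92 lower (0.461%) in iPSCs from MEFs. Of the 3575 genes changed in both groups 49 were called between them. A further 1013 genes were called in 1 iPSC group alone, and 999 of them had the same sign in the other group. Only 85 of these 1013 were called between the iPSC groups, so for the others a difference in response between the groups was not shown.

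The largest difference was in Cubn, an endocytic receptor of yolk sac and kidney, at 6.79, 6.57 and 6.56 in astrocytes, 6.12 and 5.83 in iPSCs from astrocytes and 10.30 and 10.32 in iPSCs from MEFs (4.34 between the iPSC groups). Dab2, its adaptor in endocytosis, measured 9.63, 9.56 and 9.33 in astrocytes, 7.47 and 7.68 in iPSCs from astrocytes and 9.77 and 9.84 in iPSCs from MEFs, so it was lower than in astrocytes in the first group alone. Tcf15, a bHLH factor of somites, was higher in iPSCs from MEFs by 2.65 and the phospholipase Plce1 by 2.51. In the other direction stood Tdrd12 (-3.04), Cer1, a secreted inhibitor of Nodal and BMP (-2.69), Slc27a2, a fatty acid transporter (-2.66), and the matrix protease Mmp3 (-2.33). Cer1 measured 5.66, 5.58 and 5.82 in astrocytes, 8.29 and 8.50 in iPSCs from astrocytes and 5.62 and 5.79 in iPSCs from MEFs.

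**Figure D5:**
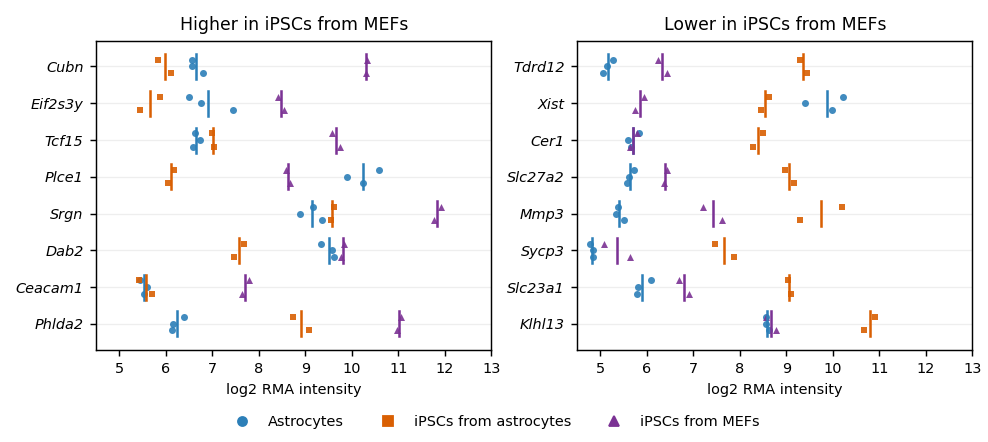
Log2 RMA intensity on each of the 7 arrays (x axis) for the 8 genes with the largest called difference in each direction between iPSCs from MEFs and iPSCs from astrocytes. Points are single arrays and vertical bars group means, and Cubn shows the largest gap, at 10.30 and 10.32 in iPSCs from MEFs against 6.12 and 5.83.

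Of the 4 measured genes that report sex, 3 were called as different between the iPSC groups. Xist, the RNA that coats the inactive X chromosome of females, measured 9.99, 9.39 and 10.22 in astrocytes, 8.45 and 8.62 in iPSCs from astrocytes and 5.74 and 5.94 in iPSCs from MEFs. The Y-linked gene Eif2s3y measured 7.43, 6.76 and 6.50, then 5.43 and 5.88, then 8.55 and 8.42. It was the 1 gene with opposite calls in the 2 iPSC groups, lower than in astrocytes by 1.24 in iPSCs from astrocytes and higher by 1.58 in iPSCs from MEFs. Uty, also Y-linked, followed the same order (7.14, 6.59 and 6.43, then 5.27 and 5.57, then 7.36 and 7.24). The Y-linked gene Kdm5d did not: it measured 6.18, 5.94 and 5.91 in astrocytes, 5.18 and 5.27 in iPSCs from astrocytes and 5.19 ± 0.02 (SD, n = 2) in iPSCs from MEFs, a difference of -0.04 between the iPSC groups. The labels give no sex, and sex and cell source cannot be told apart for genes of the X and Y chromosomes.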

How the data were processed

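RNA from 12 samples was hybridised to Affymetrix Mouse Gene 1.0 ST arrays. The deposited table holds linear intensities, which the authors normalized by RMA (robust multi-array average), per the submitters' processing notes. Its version: not given in the sources used here. Log2 intensities of the 21789 probe sets with 1 gene symbol were used, whereas 1621 with several symbols and 5443 with none were left out. Where a gene had several probe sets, the one with the highest mean was taken, which left 19938 genes.

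All 12 arrays were fitted by group with limma 3.58.1 (R 4.3.3, lmFit and eBayes, 7 residual degrees of freedom), pooled iPSCs being the mean of both iPSC groups, and p-values were adjusted over all genes by Benjamini-Hochberg. The fit was tested on simulated data. Summaries were made in Python 3.11.15 with numpy 2.4.6 and pandas 2.3.3, and figures with matplotlib 3.10.9. Arrays give no read depth, and their number limits the precision.

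The comparison, its gene lists and its motifs were chosen with earlier results of these data known. The rule for naming genes took the 15 largest differences in each direction among genes changed in both groups, up to 6 members of each list, members against their list's majority, astrocyte markers and pluripotency factors that did not change, the delivered factors, Sox1, sex genes, the 8 largest differences in each direction between iPSC groups and the 10 largest moderated t values in each direction. It left out predicted genes, clone names and receptor families. It gave 233 genes, and 75 more were named after their values had been seen.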

Additional observations from a re-analysis of the deposited data

Results flagged for a closer look

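The named genes below differed between the 2 iPSC groups by a limma test of that difference itself (adjusted p under 0.05 and a log2 difference of at least 1), and all values are iPSCs from MEFs minus iPSCs from astrocytes on the log2 scale. The germline genes Tdrd12 (-3.04), Sycp3 (-2.30) and Piwil2 (-1.13) were lower in iPSCs from MEFs. So were the early embryo genes Cer1 (-2.69), Mixl1 (-1.76), Fgf5 (-1.53) and Eomes (-1.39), the pluripotency genes Zfp42 (-1.96) and Mir302b (-1.29), the non-coding RNA Lncenc1 (-1.67) and the zinc finger gene Zfp640 (-1.08). The transporters Slc27a2 (-2.66) and Slc23a1 (-2.27), the ubiquitin ligase adaptor Klhl13 (-2.13) and the VEGF receptor gene Flt1 (-1.19) were lower too. Mmp3 (-2.33) and Lum (-1.99), both made by fibroblasts, were lower in iPSCs from MEFs, and the second array of iPSCs from astrocytes was the highest in Lum. The part of feeder RNA in these was not tested.

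Higher in iPSCs from MEFs were the imprinted genes Phlda2 (2.11), Nnat (2.04), Grb10 (1.90) and Peg3 (1.52), the endocytic receptor Cubn (4.34) and its adaptor Dab2 (2.23). The same held for Tcf15 (2.65), Plce1 (2.51), Srgn, a proteoglycan core protein (2.26), Ceacam1, an adhesion molecule (2.15), Gbx2 (1.58), Aldoc (1.13) and Lefty1 (1.02). Among the genes that report sex, Eif2s3y (2.83) and Uty (1.88) were higher and Xist (-2.69) lower in iPSCs from MEFs. Calls were lost by leaving out a single array for Zfp640 (-0.95 without the second array of iPSCs from astrocytes), Piwil2 (without the first), Aldoc (0.98 without the second) and Lefty1 (0.87 without the second, 0.77 without the first array of iPSCs from MEFs), and for Peg3 in 3 of the 4 cases that left out an iPSC array.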

How the results depend on the processing

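No called gene named in the text changed direction under the alternatives run. In iPSCs from astrocytes falls outnumbered rises (2272 against 1882), but rises did so with centred medians (2104 against 2082) and with all probe sets (2737 against 2729). Between the iPSC groups, the 92 lower against 56 higher became 11 against 12 by treat and 8 against 10 at a difference of at least 2. The fold limit set the size of the counts. With none, 10794 genes were called pooled, 10173 in iPSCs from astrocytes, 10017 in iPSCs from MEFs, 8962 in both and 1150 between the iPSC groups. Requiring a log2 difference of at least 2 gave 1180, 1224, 1190, 1026 and 18, and 175 list entries against 312. Testing against a difference of 1 (limma's treat) gave 2714 and 2613 in the single groups, 2291 in both and 23 between. The other alternatives kept each of these counts within 1.5 times. Medians of single lists moved by more than the spread between arrays for 4 of the 33 lists after cyclic loess, 1 with centred medians, 6 with 16 subtracted and 7 without dim genes. Glycolysis turned from 0.05 to -0.25 after cyclic loess and ependyma from -0.03 to 0.06 with centred medians, and endothelium went from 0.16 to 1.32 and reactive genes from -1.30 to -2.33 without dim genes. Leaving out 1 array gave 3466 to 3616 genes changed in both and 135 to 176 between the iPSC groups. With the replicate number as a block 3557 genes were changed in both, and 1 of 308 named genes lost its call. Whether the replicate numbers pair the samples was not settled. The deviations of same-numbered arrays correlated at 0.09 and -0.10 between astrocytes and iPSCs from astrocytes. Between astrocytes and iPSCs from MEFs they correlated at 0.40 and 0.06. In a group of 2 arrays the deviations mirror each other, so these values cannot decide the question. Of the 308 named genes, 3 lost their call in both groups after cyclic loess. With the iPSC arrays as 1 group only the pooled call could be compared. There 4 genes lost their pooled call (Cer1, Klhl13, Cubn and Ceacam1, which differ between the iPSC groups). Rises made up 42.3% of the genes changed in both, 39.1% after cyclic loess and 47.7% with centred medians. The causes were not tested. All probe sets were not run for lists and named genes, nor the iPSC arrays as 1 group for comparisons of single groups. Dim probe sets bound folds from below, and 11905 genes passed the filter on signal.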

Other observations

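Gene families grouped by symbol, chosen after their values were seen, are described here because no list above covers them. Their counts are read against the 7.59% of all genes that rose and 10.3% that fell. Small nucleolar RNA genes, whose RNAs guide the modification of ribosomal RNA, rose in 18 of 20 cases for the Snora symbols (median 2.13) and 25 of 31 for the Snord symbols (median 1.86), and none fell. Nucleoporin genes (Nup symbols), which build the nuclear pore, rose in 15 of 20 cases (median 1.68), with Nup43 at 2.99. RNA polymerase subunit genes (Polr symbols) rose in 14 of 27 cases (median 1.11), led by Polr3g at 3.22. Ribosomal protein genes rose in 12 of 35 cases for the large subunit (Rpl, median 0.83) and 10 of 21 for the small one (Rps, median 0.99). They have many processed pseudogenes, and cross-hybridisation was not tested. RNA helicases of the Ddx symbols rose in 16 of 35 cases and fell in 2, and translation initiation factors (Eif symbols) rose in 19 of 49 and fell in 1.

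Members of other families were lower, mostly in a minority of cases. Intraflagellar transport genes (Ift symbols), which build cilia, fell in 7 of 14 cases (median -0.96), with Ift57 at -2.39. Tetraspanin genes (Tspan) fell in 9 of 19 cases (median -0.91), the guidance cues of the Sema symbols in 7 of 20 (median -0.49, Sema3c at -4.29), the septin genes of the cytoskeleton in 5 of 12, with 1 higher, and the lipid transporters of the Abca symbols in 6 of 16 (median -0.15, Abca1 at -4.49). Of the zinc finger genes with Zfp symbols 30 of 347 rose, a share near that of all genes, and 10 fell, a smaller share than that of all genes (median -0.01).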
